A study of Homo sapiens with 6 samples.

Results

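Deoxycytidine kinase (DCK) and 8 other kinases that phosphorylate nucleosides and nucleotides, DGUOK, TK1, TK2, CMPK1, AK4, NME1, NME2 and NME4, were followed in the transcriptomes of fludarabine-resistant and control pools of HG3 cells. The 9 genes were chosen by name, from a list of enzymes of this pathway, with earlier results of these data known. They are 9 of the 23619 gene symbols measured. HG3 is an established human B cell line, and the study works on resistance in chronic lymphocytic leukaemia. There were 3 fludarabine-resistant pools, which the labels call treated, and 3 control pools, with 1 library of total RNA each. Pools are numbered 17, 18 and 28 in both groups, and the series' design describes pairs of resistant pools and parental cells. The study used transposon mutagenesis, in which a mobile element inserts into the genome. The labels give no drug dose or length of treatment. Whether control pools carry insertions too, and whether the pools had separate origins, is also not stated. A pool is a mixed population, so in these bulk libraries fewer cells with a transcript and less of it in each cell cannot be told apart.

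Cells build nucleotides from salvaged nucleosides by adding phosphates in 3 steps. A nucleoside kinase adds the first phosphate, a monophosphate kinase the next, and a diphosphate kinase the last. Fludarabine, an adenine nucleoside analogue, enters the cell without its phosphate and is inactive until DCK puts the first one back. The triphosphate then blocks DNA synthesis. DGUOK and TK2 do the first step in mitochondria, for purine and pyrimidine deoxynucleosides, and TK1 does it for thymidine in the cytosol of dividing cells.

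The B cell markers MS4A1, CD79A and PAX5 were at an FPKM of 1 or more in every library. FPKM is the number of fragments scaled to transcript length and to the library's mapped fragments, so levels can be compared between genes. Of 8 T and NK cell markers the highest value in any library was 1.30 FPKM, and of 8 stromal, endothelial and epithelial markers DCN and EPCAM were listed at 0 in all 6 libraries. These 8 summed to 3.77 to 5.99 FPKM in resistant libraries and 4.63 to 11.0 FPKM in control libraries, mostly from PECAM1, at 1.36 to 5.55 FPKM over the 6, and KRT18, at 0.0985 to 5.09 FPKM. Their part in the results was not tested. The 8 myeloid markers summed to 8.54 to 36.9 FPKM in resistant libraries and 3.93 to 11.4 FPKM in control libraries, and S100A9 made up 34.1 FPKM of the highest sum, in resistant 17. Sequencing depth, read from the steps between low values, lay between 1.05 and 1.31 in resistant libraries and between 1 and 1.24 in control libraries, relative to control 17. Resistant 18 stood apart from the other libraries, with a limma array weight of 0.162 against 1.03 to 1.93 for the other 5. Many values that shift by over 1.5 times without it are given both ways, and some only as ranges with 1 library left out.

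The promoters of DCK and TK1 are shown because the 2 genes did not move together between resistant and control pools. Each sequence is the 250 bases before the annotated start, from RefSeq on GRCh38.p14, 5′ to 3′ on the gene's strand. DCK lies on the plus strand, at chr4:70993399-70993648, and TK1 on the minus strand, at chr17:78187205-78187454. Capitals mark matches to 4 motifs, searched on both strands, and no 2 matches overlap. The GC box was spelled GGGCGG. The E-box was spelled CACGTG, and it reads the same on both strands. The CCAAT box was spelled by its name. For E2F a match was the word TTTCCCGC or the word TTTCGCGC or the word TTTGCCGC or the word TTTGGCGC.
DCK: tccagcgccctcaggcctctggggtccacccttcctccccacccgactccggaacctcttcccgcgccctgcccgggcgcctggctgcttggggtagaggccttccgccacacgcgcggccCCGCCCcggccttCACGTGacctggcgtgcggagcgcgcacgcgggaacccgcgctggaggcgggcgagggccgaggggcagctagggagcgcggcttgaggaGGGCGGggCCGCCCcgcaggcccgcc
TK1: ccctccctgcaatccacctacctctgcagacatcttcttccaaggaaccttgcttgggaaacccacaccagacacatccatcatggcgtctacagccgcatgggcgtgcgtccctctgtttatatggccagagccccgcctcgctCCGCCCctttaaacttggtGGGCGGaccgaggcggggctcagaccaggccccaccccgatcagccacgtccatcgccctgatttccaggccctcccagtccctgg

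The DCK promoter was the richer in G and C, at 78.0% against 62.4% for TK1. It held 3 GC boxes and 1 E-box, and the window shown for TK1 held 2 GC boxes. TK1 has 2 annotated starts, and 2 CCAAT boxes lay before the inner one. Promoters of all 9 kinase genes were in the table. All 9 are tested genes, so the 8143 tested genes in the table are set beside all 27305. A GC box lay before a start of 6 of the 9, or 66.7%, against 74.7% of tested genes and 46.2% of all. An E-box lay before 2 of the 9, or 22.2%, against 11.9% of tested genes and 7.73% of all. CCAAT boxes lay before 4 of the 9, or 44.4%, against 42.4% of tested genes and 37.0% of all. An E2F word lay before 0 of the 9, against 5.82% of tested genes, 3.40% of all and 12 of 24 matched genes of S phase and replication. These are letters in a window and not measured sites.

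None of the 9 kinases passed limma's adjusted threshold of 0.05 between resistant and control pools. DCK was the 1 member lower in all 3 resistant pools, and TK1 and NME4 were higher in all 3. The other 6 moved in different directions in different pools. On the log2 scale TK1 was higher by only 0.02 in pool 28, and NME4 by only 0.02 in pool 18. Over 6 alternatives that of TK1 ran from -0.13 to 0.025 and that of NME4 from -0.086 to 0.26. The direction in those pools is thus not settled. Among all 11307 tested genes 0.0354% passed, 0.0177% higher in resistant pools and 0.0177% lower, so 0 of 9 is near the background. At an unadjusted p under 0.05 the count was also 0 of 9, against 13.1% of all genes, 5.99% higher and 7.14% lower. DCK was the 1 of 9 lower in every pool, against 18.7% of all genes, and 2 of 9 were higher in every pool, against 18.9%; together these were 3 of 9, against 37.6%. Resistant and control values did not overlap for 2 of 9 kinases and 21.3% of all genes, with DCK below, against 11.1%, and NME4 above, against 10.1%. Within a pool 0 of 9 kinases differed by more than 1 as log2(FPKM + 1). Of all genes 4.17% did in pool 17, 12.7% in pool 18 and 8.08% in pool 28. These shares of the 9 kinases lie near those of all genes. Adding 1 shrinks the differences of low genes. In FPKM itself, TK1 in resistant 18 was 2.02 times its control. AK4 was 2.27 times its control in pool 17 and 0.412 times in pool 18. The p-values rest only on how far these libraries vary, which may be partly technical.

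**Figure D1:**
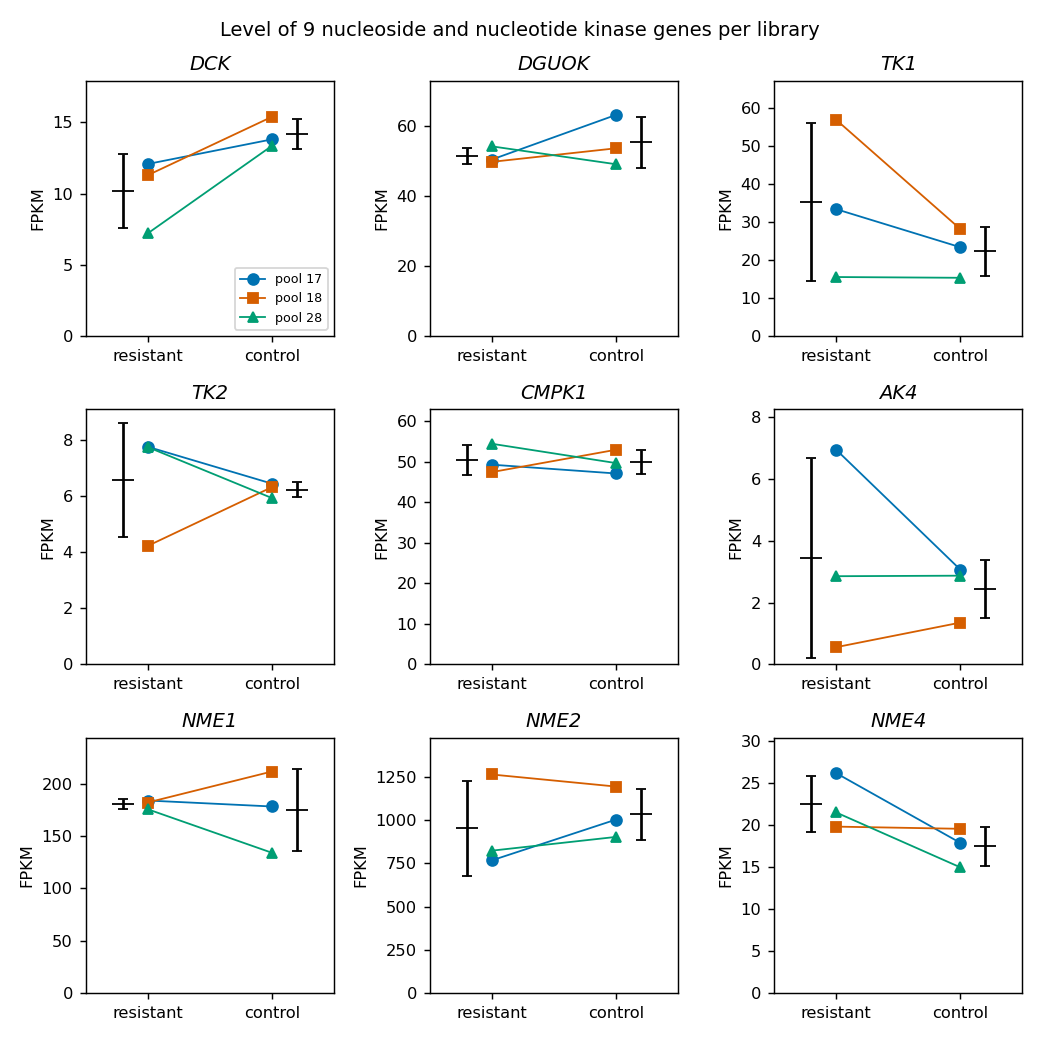
Level of each of the 9 kinase genes in FPKM, with resistant libraries on the left and control libraries on the right of each panel; lines join pools of the same number, and bars give the mean ± SD of 3 libraries. The 3 resistant values of DCK, 7.20 to 12.1, lie below the 3 control values, 13.3 to 15.4, while CMPK1 stays between 47.1 and 54.4 in all 6 libraries.

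DCK, which adds the first phosphate to deoxycytidine, deoxyadenosine and deoxyguanosine and to many nucleoside drugs, had 12.1, 11.3 and 7.20 FPKM in resistant 17, 18 and 28, against 13.8, 15.4 and 13.3 FPKM in controls 17, 18 and 28. All resistant values lay below all control values, and resistant 28 was the lowest. The means were 10.2 ± 2.61 FPKM in resistant pools and 14.2 ± 1.07 FPKM in control pools (SD, n = 3 each), 1.39-fold lower in resistant pools. On the scale of log2(FPKM + 1), which understates the change of low genes, the difference was -0.47, with a 95% interval from -0.96 to 0.03 (limma adjusted p = 0.399). Of the 11307 tested genes, 10.5% had a difference as low as that of DCK or lower.

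The size of the DCK difference was set mainly by pool 28. DCK in the resistant pool was 0.874 times the control level in pool 17, 0.733 times in pool 18 and 0.539 times in pool 28. Differences lower than that of DCK were found for 32.3% of tested genes in pool 17, 22.9% in pool 18 and 6.67% in pool 28. Without resistant 28 the log2 difference was -0.26 (adjusted p = 0.573), and without both libraries of pool 28 it was -0.30 (adjusted p = 0.923). Without resistant 18 it was -0.55 (adjusted p = 0.196).

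**Figure D2:**
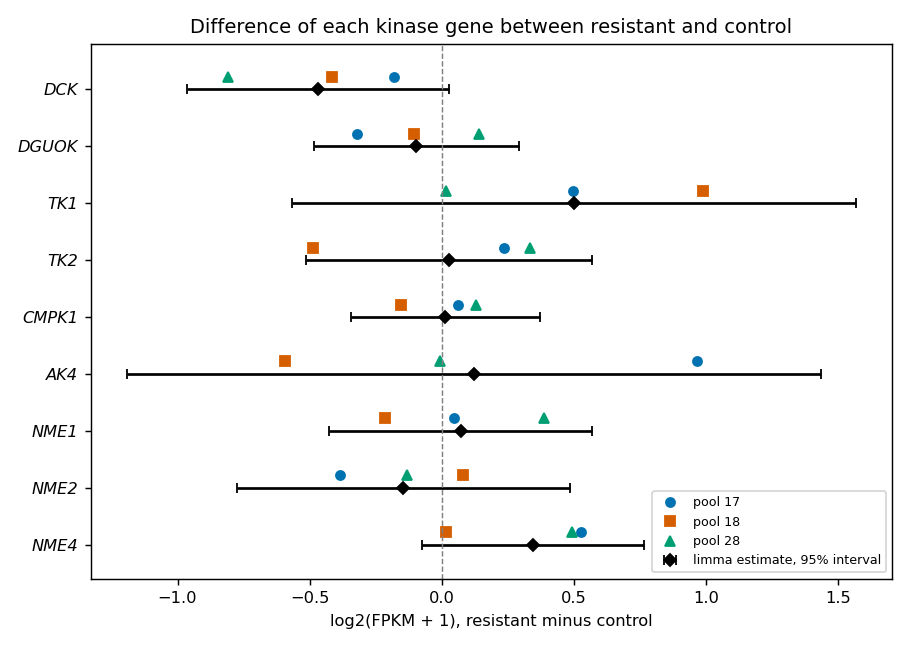
Difference of each kinase gene between resistant and control on the scale of log2(FPKM + 1); black diamonds and bars are limma's estimate with its 95% interval over 3 libraries per group, and coloured points are the differences within pools 17, 18 and 28. The interval of every gene crosses 0, and that of DCK, from -0.96 to 0.03, reaches least past it on the upper side.

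The tested genes beside DCK on chromosome 4 had a median difference near that of DCK, while single genes varied widely. In pool 18 they ran from 1.14 for PAICS to -2.20 for CCNI. Its 40 nearest tested genes, 20 on each side from CLOCK to PAQR3 in the order of RefSeq, had a median difference of -0.14 (pool 17), -0.32 (pool 18) and -0.81 (pool 28). DCK differed by -0.18, -0.42 and -0.81 in the same pools. In pool 28, 38 of the 40 neighbours lay below the median of all genes, and 20 of the 40 were above DCK and 20 below it. In pool 18, 30 of 40 lay below the median of all genes, and the 20 genes after DCK had a median of -0.52 while the 20 before it had 0.04. In pool 17, 26 of 40 did. With 10 genes on each side, a width chosen after the values were seen, the medians were -0.07, -0.43 and -0.57. Counted over the nearest 40 genes with no filter on low values, the median was -0.066 in pool 28 and nearer to 0 in the other pools, since genes at or near 0 FPKM entered. Neighbouring genes are not independent, and the cause was not tested.

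MOB1B, the next tested gene before DCK, encodes an activator of LATS kinases in the Hippo pathway. Its annotated exons overlap those of DCK on the same strand, so the counting could have split reads between the 2 genes. It had 0.841, 0.353 and 0.659 FPKM in resistant 17, 18 and 28, against 1.12, 1.77 and 2.39 FPKM in controls 17, 18 and 28. The groups did not overlap, and the log2 difference of -0.75 did not pass (adjusted p = 0.252). All resistant values were under 1 FPKM, and the difference ran from -1.38 to -0.26 over 18 alternatives. COX18, the next tested gene after DCK, takes part in the assembly of cytochrome c oxidase. Only tested genes were counted, so untested genes may lie between. It had 5.22, 3.59 and 2.71 FPKM in resistant 17, 18 and 28, against 5.01, 5.28 and 4.53 FPKM in the controls. It was lower in pools 18 and 28 and level in pool 17 (adjusted p = 0.554).

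**Figure D3:**
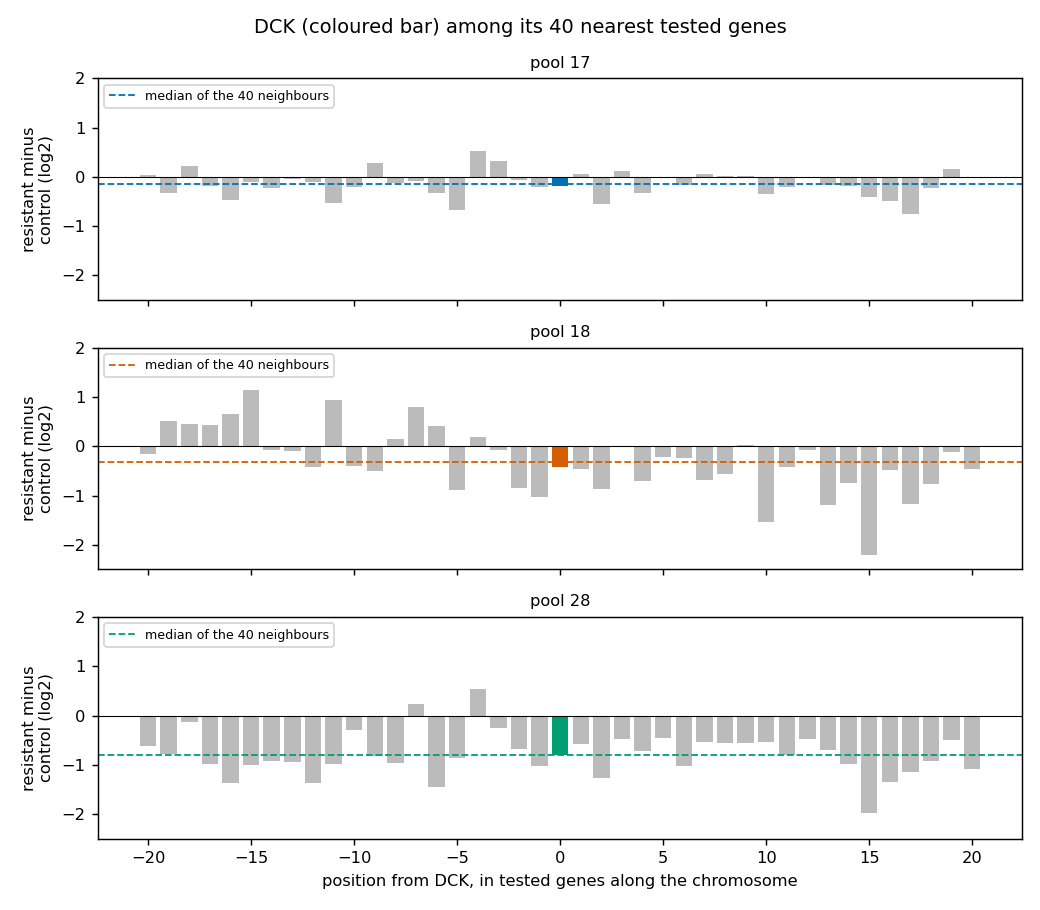
Difference between the resistant and the control library of each pool, as log2(FPKM + 1), for DCK (coloured bar, position 0) and 20 tested genes on each side in chromosomal order; dashed lines are the median of the 40 neighbours. In pool 28 DCK, at -0.81, lies at the level of its neighbours, and in pool 18 the genes after DCK are lower than those before it.

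The tested genes whose values over the 6 libraries lay nearest to those of DCK were C12orf75, SDAD1, CDT1, BCKDK and ANO10, of 11306 compared. The measure was the root mean square distance between log2 values after each gene's mean was removed, and it ran from 0.08 for C12orf75 to 0.12 for ANO10. SDAD1, which takes part in ribosome biogenesis, is itself a neighbour of DCK, 11 tested genes further along chromosome 4. CDT1, which loads the replicative helicase, had 28.9, 27.8 and 15.9 FPKM in resistant 17, 18 and 28, against 35.4, 41.8 and 34.6 FPKM in the controls. Among the other kinases NME2 was nearest to DCK, at a distance of 0.32, which was rank 2112. The log2 differences of the nearest 5 lay between -0.64 and -0.42, and between -0.40 and -0.27 without resistant 28. Of the 5, 0 passed and 4 had an unadjusted p under 0.05, against 13.1% of all genes. They were picked for values like those of DCK, so similar differences and p-values follow from the choice.

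DGUOK, the mitochondrial kinase for purine deoxynucleosides and the other enzyme able to activate some purine analogues, was close to level. It had 50.3, 49.7 and 54.1 FPKM in resistant 17, 18 and 28, against 63.1, 53.5 and 49.0 FPKM in controls 17, 18 and 28. DGUOK-AS1 overlaps it on the opposite strand, and whether counting used strand is not stated. The groups overlapped, and pool 28, where DCK was lowest, was the 1 pool in which DGUOK was higher. The log2 difference was -0.10, with an interval from -0.48 to 0.29 (adjusted p = 0.844). The ratio of DGUOK to DCK was 4.17, 4.40 and 7.52 in resistant 17, 18 and 28, against 4.57, 3.48 and 3.67 in the controls.

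TK1, the cytosolic thymidine kinase that rises as cells enter S phase, was the member with the largest estimate and one of the widest intervals. It had 33.4, 57.0 and 15.5 FPKM in resistant 17, 18 and 28, against 23.4, 28.2 and 15.3 FPKM in controls 17, 18 and 28. Resistant 18 was the highest library and both libraries of pool 28 were the lowest. The mean was 35.3 ± 20.8 FPKM in resistant pools and 22.3 ± 6.49 FPKM in control pools (SD, n = 3 each). The log2 difference was 0.50, with an interval from -0.57 to 1.57 (adjusted p = 0.676). Without resistant 18 it was 0.07 (adjusted p = 0.915), and without control 28 it was 0.27 (adjusted p = 0.972). Without resistant 28 it was 0.98 (adjusted p = 0.377).

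In pool 18 most genes of S phase and replication were higher together with TK1. The median difference of the 28 listed genes was -0.16 (pool 17), 0.82 (pool 18) and -0.41 (pool 28). In these pools 9, 25 and 5 of the 28 were above 0, against 5337, 6039 and 5579 of all 11307 tested genes. TK1 differed by 0.50, 0.99 and 0.02 in the same pools, above the list's median in each. Over the 3 pools the list's median was 0.15, against 0.01 for all tested genes, and it turned to -0.28, with 3 of 28 above 0, without resistant 18, where all tested genes had -0.03. It was 0.27 without resistant 17, 0.48 without resistant 28 and 0.08 without control 28. With all 6 libraries limma passed 0 of 28 in either direction, with 0 higher and 3 lower at an unadjusted p under 0.05. Of all tested genes 5.99% were higher and 7.14% lower at that p. TYMS, which makes thymidylate by the route that bypasses TK1, had 25.3, 19.99 and 25.1 FPKM in resistant 17, 18 and 28, against 45.2, 73.8 and 67.0 FPKM in the controls. Its log2 difference of -1.34 (adjusted p = 0.158) passed with array weights (adjusted p = 0.0321). MKI67, a marker of cycling cells, differed by -0.91 (adjusted p = 0.182), and passed with array weights (adjusted p = 0.0444). Array weights passed 301 of all genes, against 4 in the reported fit. For TYMS and for MKI67, 17 of 18 alternatives gave the same result as the reported fit. A different share of cells in S phase and a different level in each cell cannot be told apart here.

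**Figure D4:**
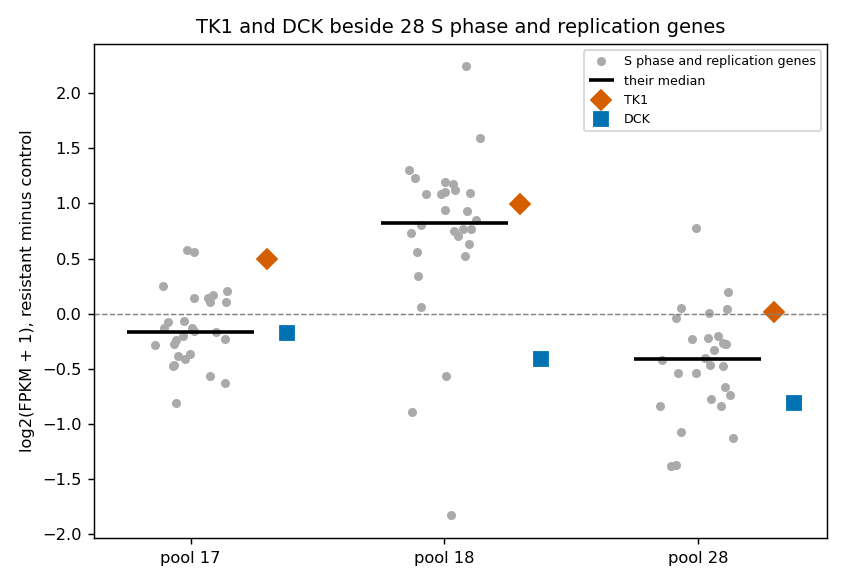
Differences between the resistant and the control library of each pool, as log2(FPKM + 1), for 28 genes of S phase and replication (grey points, black line at their median) with TK1 and DCK beside them. In pool 18 the median is 0.82 and TK1 stands at 0.99, while DCK is below 0 in all 3 pools.

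The genes nearest to TK1 over the 6 libraries were SFPQ, AURKB, SPC24, RGS1 and CALM2, at distances from 0.08 to 0.19. AURKB, a mitotic kinase, had 69.8, 129 and 39.4 FPKM in resistant 17, 18 and 28, against 44.5, 61.7 and 35.0 FPKM in the controls. SPC24 is a kinetochore protein, and CALM2 encodes calmodulin. DCK was at rank 5058 from TK1. The 40 tested neighbours of TK1 on chromosome 17 differed by -0.13, 0.14 and 0.21 in the median over pools 17, 18 and 28, and 2 of the 40 were above TK1 in pool 18.

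TK2, which phosphorylates thymidine and deoxycytidine in mitochondria, differed in sign between pools. It had 7.78, 4.23 and 7.77 FPKM in resistant 17, 18 and 28, against 6.46, 6.33 and 5.95 FPKM in controls 17, 18 and 28. The controls lay close together, resistant 18 was below them and the other 2 resistant libraries above. On the log2 scale it differed by 0.03, with an interval from -0.51 to 0.57 (adjusted p = 0.975). Without resistant 18 it was 0.28 (adjusted p = 0.232).

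Among the 4 deoxynucleoside kinases, DCK made up 11.6%, 9.23% and 8.51% of the summed FPKM in resistant 17, 18 and 28, against 12.9%, 14.9% and 16.0% in controls 17, 18 and 28. TK1 made up 32.3%, 46.6% and 18.4% in resistant 17, 18 and 28, against 21.9%, 27.2% and 18.3% in the controls. DGUOK held the largest share in 5 libraries, and TK1 did in resistant 18. The sum of the 4 was 84.6 to 122 FPKM in resistant libraries and 83.6 to 107 FPKM in control libraries.

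**Figure D5:**
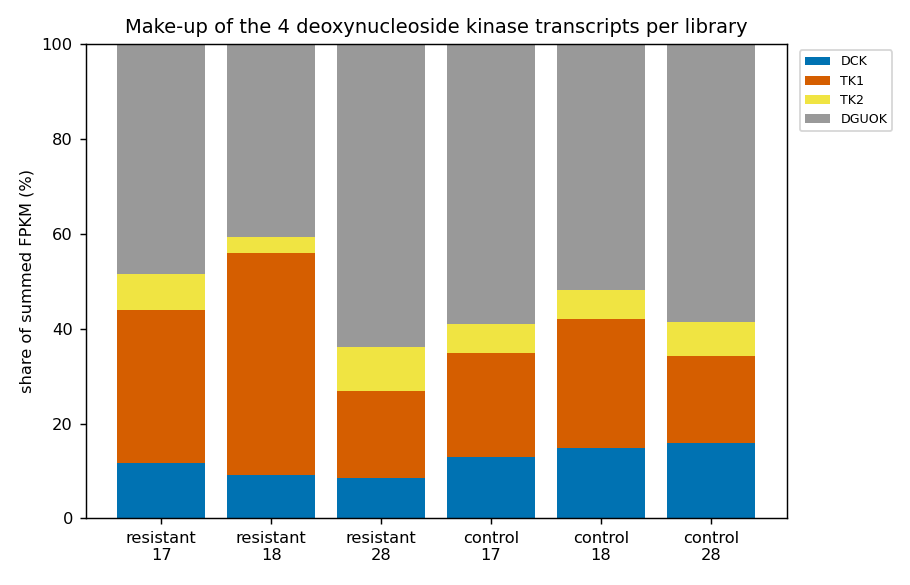
Share of each of the 4 deoxynucleoside kinase genes in their summed FPKM, in percent, per library, with resistant libraries on the left. DCK holds 8.51% to 11.6% in resistant libraries and 12.9% to 16.0% in control libraries.

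DCK was compared with each of the 8 other members through the log2 ratio of the pair in each library. With 3 libraries against 3, an exact two-sided permutation test over the 20 arrangements cannot go below p = 0.1. DCK was lower relative to TK1 by -0.97, to NME4 by -0.81, to NME1 by -0.54 and to CMPK1 by -0.48 on the log2 scale, and for these 4 pairs the groups did not overlap (exact permutation p = 0.1 and 0.2 adjusted over the 8 pairs). Relative to AK4, TK2, DGUOK and NME2 the differences were -0.59, -0.50, -0.37 and -0.32, with overlapping groups (exact permutation p from 0.3 to 0.5). No pair passed, which this permutation test does not allow at 3 against 3. With 1 library left out differences ranged from -1.24 to -0.62 (TK1), -0.98 to -0.63 (NME4), -0.65 to -0.35 (NME1) and -0.62 to -0.22 (CMPK1). For the overlapping pairs the ranges were -1.28 to -0.15 (AK4), -0.83 to -0.16 (TK2), -0.51 to -0.13 (DGUOK) and -0.59 to -0.18 (NME2). For the 4 pairs without overlap a lower ratio in all 3 pools follows from that and adds no support. All 8 ratios also share the same DCK values. In pools 17, 18 and 28 the differences were -0.68, -1.41 and -0.83 to TK1, -0.71, -0.43 and -1.30 to NME4, -0.23, -0.20 and -1.20 to NME1, and -0.24, -0.26 and -0.94 to CMPK1.

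CMPK1, which adds the second phosphate to cytidine, uridine and deoxycytidine monophosphates, had the most even level over the libraries. It had 49.2, 47.4 and 54.4 FPKM in resistant 17, 18 and 28, against 47.1, 52.9 and 49.6 FPKM in controls 17, 18 and 28. Its log2 difference was 0.01, with an interval from -0.35 to 0.37 (adjusted p = 0.983), the narrowest interval of the 9. AK4, an adenylate kinase family member of the mitochondrial matrix, was the lowest and most variable. It had 6.94, 0.558 and 2.85 FPKM in resistant 17, 18 and 28, against 3.06, 1.35 and 2.87 FPKM in the controls. Resistant 17 was the highest library, resistant 18 the lowest, and pool 28 was level. Its log2 difference was 0.12, with an interval from -1.19 to 1.44 (adjusted p = 0.951). Without resistant 18 it was 0.73 (adjusted p = 0.285), and without resistant 17 it was -0.44 (adjusted p = 0.721). The annotation names 6 AK4 pseudogenes, and the counting could have split reads between them and AK4.

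NME4, the nucleoside diphosphate kinase of mitochondria, had 26.2, 19.8 and 21.5 FPKM in resistant 17, 18 and 28, against 17.9, 19.6 and 14.98 FPKM in controls 17, 18 and 28. The groups did not overlap, but resistant 18 was only just above control 18. The means were 22.5 ± 3.31 FPKM in resistant pools and 17.5 ± 2.33 FPKM in control pools (SD, n = 3 each). The log2 difference was 0.35, with an interval from -0.07 to 0.77 (adjusted p = 0.454). Without resistant 18 it was 0.43 (adjusted p = 0.192), and without both libraries of pool 18 it was 0.51 (adjusted p = 0.251). The 29 tested neighbours of NME4 on chromosome 16 differed in the median by 0.17 (pool 17), -0.28 (pool 18) and 0.28 (pool 28), where NME4 differed by 0.53, 0.02 and 0.50. DECR2, a peroxisomal reductase gene whose annotated exons overlap those of NME4, lay at 1.61 to 2.42 FPKM in all 6 libraries.

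NME1 and NME2, the main cytosolic nucleoside diphosphate kinases, were the most abundant members. NME2 had 768, 1265 and 824 FPKM in resistant 17, 18 and 28, against 1004, 1195 and 904 FPKM in controls 17, 18 and 28. NME1 had 184, 182 and 176 FPKM in resistant 17, 18 and 28, against 178, 212 and 134 FPKM in the controls. Neither gene separated the groups. The log2 difference was -0.15 for NME2, with an interval from -0.78 to 0.48 (adjusted p = 0.854), and 0.07 for NME1, from -0.43 to 0.57 (adjusted p = 0.918). Without resistant 18 that of NME2 was -0.37 (adjusted p = 0.295), and without control 28 that of NME1 was -0.10 (adjusted p = 0.973).

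The 2 genes lie side by side on chromosome 17, and a readthrough transcript, NME1-NME2, shares exons with both, so the counting could have split reads among the 3. NME1-NME2 had 14.2, 4.27 and 13.7 FPKM in resistant 17, 18 and 28, against 22.96, 16.6 and 23.6 FPKM in controls 17, 18 and 28. All resistant values lay below all control values, and resistant 18 was the lowest. The readthrough was 1.96-fold lower in resistant pools, with a log2 difference of -1.05, an interval from -2.02 to -0.07 and an unadjusted p under the threshold that did not hold after adjustment (limma unadjusted p = 0.0385, adjusted p = 0.355). Without resistant 18 the difference was -0.54 (adjusted p = 0.158). Set against NME1, the readthrough was at 7.72%, 2.35% and 7.82% of its FPKM in resistant 17, 18 and 28, against 12.9%, 7.86% and 17.6% in the controls. The 40 tested neighbours of NME1 had a median of 0.34 in pool 18, where NME1 differed by -0.22 and NME2 by 0.08. MBTD1, the next tested gene after NME2, encodes a chromatin reader and differed by -0.10 (adjusted p = 0.886).

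Per length of transcript the order of mean levels over the 6 libraries was NME2, NME1, DGUOK, CMPK1, TK1, NME4, DCK, TK2 and AK4. NME2 was 4.17 to 6.95 times as high as NME1, and NME1 was 2.74 to 3.95 times as high as DGUOK, and these 2 steps were clear of any overlap. The ranges of all further neighbours in the order overlapped over the 6 libraries. DGUOK was above CMPK1 in 4 of 6 libraries, CMPK1 above TK1 in 5, TK1 above NME4 in 5, and DCK above TK2 in 5. NME4 was above DCK in all 6, and TK2 above AK4 in all 6.

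Other kinases of nucleosides and nucleotides did not pass either. Of 21 listed, 20 were matched in the files and 11 were tested, and 0 passed in either direction. Of the 11, 1 had an unadjusted p under 0.05 upward and 1 downward, against 5.99% and 7.14% of all tested genes. The median log2 difference was 0.14, against 0.01 for all tested genes. Without resistant 18 these medians were 0.06 and -0.03, and without control 28 the list had 0.07. UCK1, a uridine and cytidine kinase, had 9.83, 10.9 and 9.91 FPKM in resistant 17, 18 and 28, against 8.27, 6.11 and 6.66 FPKM in the controls, a log2 difference of 0.49 (adjusted p = 0.286). UCKL1, its relative, had 28.4, 17.7 and 26.1 FPKM in resistant 17, 18 and 28, against 35.2, 33.1 and 35.4 FPKM in the controls, a difference of -0.53 (adjusted p = 0.344), and -0.33 without resistant 18 (adjusted p = 0.181). For both genes the groups did not overlap. Of the 11 tested, these were 1 above and 1 below, against 10.1% and 11.1% of all tested genes. Both were picked for the smallest p of their list, so this follows largely from the choice. The 9 kinases that were not tested had fewer than 3 libraries at an FPKM of 1.

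Enzymes that work against the kinases, by removing phosphates or amino groups, were listed as 17 genes, of which 14 were tested. None passed, and 0 had an unadjusted p under 0.05 upward and 1 downward, against 5.99% and 7.14% of all tested genes. Their median difference was 0.21, or 0.12 without resistant 18. DCTD, which deaminates deoxycytidine monophosphate, had 37.9, 36.5 and 45.0 FPKM in resistant 17, 18 and 28, against 50.3, 54.5 and 52.1 FPKM in the controls (log2 difference -0.39, adjusted p = 0.360). The surface 5′-nucleotidase gene NT5E had 7.80, 3.47 and 5.16 FPKM in resistant 17, 18 and 28, against 6.39, 11.7 and 9.55 FPKM in the controls, above its control in pool 17 and below it in the other pools. Its log2 difference was -0.68 (adjusted p = 0.395), and -0.44 without resistant 18 (adjusted p = 0.360). The ratio of NT5C2, a cytosolic 5′-nucleotidase, to DCK was 1.16, 1.83 and 1.81 in resistant 17, 18 and 28, against 0.925, 0.859 and 0.925 in the controls. NT5C2 itself had 13.98, 20.6 and 13.0 FPKM in resistant 17, 18 and 28, against 12.8, 13.2 and 12.35 FPKM in the controls. Its groups overlapped (limma adjusted p = 0.6). The ratio of SAMHD1, which cleaves deoxynucleotide and drug triphosphates, to DCK was 0.218, 0.248 and 0.356 in resistant 17, 18 and 28, against 0.167, 0.130 and 0.141 in the controls. These 2 pairs were picked after the files were read and were not tested.

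Of 7 nucleoside transporter genes only SLC29A1, the equilibrative transporter that carries fludarabine, passed the filter on low values. It had 37.6, 20.4 and 27.7 FPKM in resistant 17, 18 and 28, against 25.4, 32.8 and 25.7 FPKM in the controls. Pools 17, 18 and 28 differed by 0.55, -0.66 and 0.11 on the log2 scale, and opposite moves left an average near 0 (adjusted p = 0.9999). Without resistant 18 it differed by 0.21 (adjusted p = 0.517), and without resistant 17 by -0.21 (adjusted p = 0.742). All 14 genes of mitochondrial DNA maintenance, the partners of TK2 and DGUOK, were tested, and 0 passed. Of these, 2 had an unadjusted p under 0.05 upward and 1 downward, against 5.99% and 7.14% of all tested genes. The list's median was 0.18, or 0.11 without resistant 18. SLC25A36, a mitochondrial pyrimidine nucleotide carrier, differed by -0.67 (adjusted p = 0.297), and the thymidine phosphorylase gene TYMP by 0.68 (adjusted p = 0.322), or 0.43 without resistant 28 (adjusted p = 0.472).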

How the data were processed

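The deposited values were FPKM per gene symbol, per the file headers, written with decimal commas, 1 file per library. The build was hg19, and the tools named are Cufflinks 2.2.1, TopHat2 2.0.4, DESeq2 and HTSeq 0.6.1, per the submitters' processing notes; the step each served, the annotation and strandedness are not given in those sources. FPKM hold no counts, so absolute depth is unknown and no count model was fitted. Relative depth came from the commonest ratio of low values between libraries.

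A gene entered the test when 3 or more of the 6 libraries held it at 1 FPKM or above. This left 11307 genes, with all 9 kinases among them. For these, log2(FPKM + 1) was fitted by group in R 4.3.3, with limma 3.58.1 (trended eBayes, two-sided, Benjamini-Hochberg over all tested genes). The code was tested on simulated data. Kinases and lists were chosen with earlier results of these data known. From each list up to 4 passing genes, otherwise the 2 of smallest p, were named. The 5 genes nearest to DCK and to TK1 were named too, with the nearest tested gene on each side of DCK, NME1 and NME2. DECR2 was named for its overlap, and other genes after their values were seen. Gene order and promoters came from RefSeq on GRCh38.p14; overlaps, pseudogenes, GC content and length (91.9% of tested genes matched) from GENCODE on GRCh38. The authors' build was hg19, so no coordinates of theirs were combined with these.

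Differences within pools paired libraries by number, from the design's description of pairs. Deviations from the group means of same-numbered libraries correlated across genes at 0.15, 0.09 and -0.02 in pools 17, 18 and 28, so the numbers marked little shared variation and the reported fit had no block.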

Additional observations from a re-analysis of the deposited data

How the results depend on the processing

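The limits are 3 libraries per group, no counts and 1 divergent library. Under the 18 alternatives, 0 of the 9 kinases passed in any; DCK kept its direction in all 18 (log2 difference -0.61 to -0.26, adjusted p from 0.152 to 0.923), as did TK1 (0.07 to 0.98) and NME4 (0.24 to 0.51), and the lowest adjusted p of any kinase was 0.144, for NME4 with array weights. DCK had an unadjusted p under 0.05 with quantile normalization, array weights, GC and length trends removed (with or without the replicate block), and without resistant 17 or resistant 18, as had TK1 without resistant 28, and NME4 with array weights, without resistant 18 and without pool 18. Of all 11307 genes 1540 had such a p with quantile normalization, 2998 with array weights, 1238 without resistant 17 and 2640 without resistant 18. The count was 1311 without resistant 28, 2053 without pool 18 and, of 10388 genes, 1606 with GC and length trends removed. The kinases called were 2 of 9 with array weights and 2 of 9 without resistant 18. Over all genes 4 passed, against 301 with array weights, 2 with GC and length trends removed, 18 without both libraries of pool 18, and 3 to 13 with 1 library left out (13 without resistant 18). With the pool number as a replicate block 3 genes passed, and DCK had an adjusted p of 0.409; with the block and GC and length trends removed 0 of 10388 passed, 1583 at an unadjusted p under 0.05, and DCK differed by -0.54. The 8 comparisons of DCK with another kinase kept their sign in all 14 alternatives each.

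Estimates near 0 changed sign, and the cause was not tested. With 1 library left out the range was -0.18 to 0.0030 for DGUOK, -0.10 to 0.28 for TK2, -0.043 to 0.056 for CMPK1, -0.44 to 0.73 for AK4, -0.10 to 0.22 for NME1, -0.21 to 0.21 for SLC29A1, -0.052 to 0.68 for RGS1 and -0.34 to 0.033 for MBTD1. Without both libraries of pool 17 DGUOK was 0.017, TK2 -0.075, CMPK1 -0.013, AK4 -0.30 and MBTD1 0.018. Without pool 28 TK2 was -0.13, CMPK1 -0.046 and NME1 -0.085, and without pool 18 SLC29A1 was 0.33. CMPK1 was -0.10 and NME2 0.0019 with quantile normalization, and CMPK1 was -0.032 with GC and length trends removed, with or without the block. SLC29A1 was 0.00198 with a pseudocount of 5 and 0.16 with array weights, which gave -0.0078 for RGS1. Leaving out libraries for list medians was chosen after the values were seen. Of 513 untested values under an alternative, 40 moved by more than the spread over pools; without the filter the median of the neighbours of DCK in pool 28 was -0.07, since low genes entered.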
